A study of Rattus norvegicus with 6 samples.

Results

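The let-7 and miR-98 family was followed in tendon-derived stem cells of the rat (rTDSCs) kept with or without mechanical loading. Its members were the 8 miRNAs of the array named rno-let-7a, rno-let-7b, rno-let-7c, rno-let-7d, rno-let-7e, rno-let-7f, rno-let-7i and rno-miR-98, taken by name alone and without their star arms. They were 8 of the 677 miRNAs on the array and carried 16 of its 1644 probes. All 8 were detected on all 6 arrays. No member passed the test between loading and non-loading cells, while let-7b, let-7c and let-7d had negative differences on both of their probes and let-7a was nearly level.

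let-7 miRNAs are processed from hairpin precursors and guide the RNA-induced silencing complex to messenger RNAs that pair with the seed, the bases next to the 5′ end. In stem and progenitor cells the RNA-binding protein LIN28 blocks the maturation of their precursors, so mature let-7 is known to accumulate as cells leave the pluripotent state. Known targets of the family include Hmga2, Myc, Ras genes and Lin28 itself. miR-98 bears another name for historical reasons and belongs to the same family by its seed.

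The mature sequences are shown because the members differ by few bases, which a hybridisation assay has to tell apart. They are RefSeq sequences of the GRCr8 table, matched by name for 8 of 8 members, written 5′ to 3′ with the seed, bases 2 to 8, in capitals.
let-7a: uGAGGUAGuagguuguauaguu
let-7b: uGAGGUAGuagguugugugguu
let-7c: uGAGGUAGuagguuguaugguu
let-7d: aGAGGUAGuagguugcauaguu
let-7e: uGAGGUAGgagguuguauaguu
let-7f: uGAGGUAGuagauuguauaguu
let-7i: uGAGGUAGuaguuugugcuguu
miR-98: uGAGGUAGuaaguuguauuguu

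Each mature RNA has 22 bases and the 8 share 1 seed. With positions counted from 1 at the 5′ end and the base of let-7a given first, let-7c differs from let-7a by A19G, let-7e by U9G and let-7f by G12A. let-7b differs by A17G and A19G, and let-7d by U1A and U16C. miR-98 differs by G11A and A19U. let-7i is the most distant from let-7a, with G12U, A17G, U18C and A19U. Of the 28 pairs of members, 4 pairs are 1 base apart and the most distant pair is 6 bases apart. The number of G and C bases is 7 in let-7f and miR-98, 8 in let-7a, 9 in let-7c, let-7d, let-7e and let-7i, and 10 in let-7b. The RefSeq table holds 9 mature RNAs with this seed, and the one that is no member is let-7g, which has no probe name on the array.

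In GRCr8 the 8 mature sequences lie at 11 loci. Neighbours on chromosome 17 are let-7a (chr17:16320145-16320166, plus strand), let-7f (chr17:16320508-16320529, plus strand) and let-7d (chr17:16322273-16322294, plus strand). let-7c (chr7:118683636-118683657, plus strand) lies 386 bases before let-7b on chromosome 7. let-7f and miR-98 lie 589 bases apart on chromosome X, and let-7e lies on chromosome 1 between miR-99b and miR-125a. let-7i (chr7:60527935-60527956, minus strand) has none of the miRNAs named here beside it. let-7a, let-7c and let-7f are each made from 2 loci with the same mature sequence, so a probe signal for them cannot be assigned to a locus.

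rTDSCs came from the patellar tendon of 8-week-old male Sprague Dawley rats. According to the labels, colonies were mixed together at passage 0 and cells used at passage 3. The labels do not say whether replicates came from separate animals or cultures, so p-values measure the spread between these samples, which may be technical. The loading group (n = 3) was grown on collagen-coated silicone plates and stretched uniaxially in cycles, 10% elongation and 0.5 Hz during 8 h of each day, and was sampled at day 7, and the untreated non-loading group (n = 3) was sampled at the same time. Total RNA of each sample was hybridised in 1 colour (Cy3) to 1 Agilent rat miRNA array. A bulk sample of this kind cannot tell fewer cells of a type from less RNA per cell.

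Signals were expressed relative to a reference level of each array, the 75th percentile of the 173 probes that were detected throughout, which lay between 262.6 and 362.2 intensity units. The standard deviation of the negative-control spots was 1.80 to 2.28 units. Detected miRNAs numbered 140 to 186 per array, and 148 were tested. As a check of the cell type, 5 of 6 mesenchymal marker miRNAs were detected on all arrays, and the exception was miR-145, detected on 3 arrays. The markers of skeletal muscle, epithelium, neurons and liver were detected on none. Of the blood markers, miR-142-3p, miR-142-5p and miR-150 were not detected and miR-223 was detected on 5 arrays, at 4.48% to 8.75% of the reference level, and the endothelial miR-126 was detected on all 6 at 2.77% to 5.36%. The part of these cell types in the values of the family was not tested.

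The family was bright. All 960 spots of the 16 member probes over the 6 arrays were well above background, 0 were saturated, and 39 (4.06%) were set aside as outliers. The dimmest of the 16 probes, one of miR-98, had a mean of 41.5 intensity units on its lowest array. With outliers set aside, the remaining spots of a probe on one array had coefficients of variation of 0.951% to 20.8%, with a median of 4.68%. Summed over their probes, the 8 members gave 28.0%, 25.6% and 26.0% of the fluorescence of all tested miRNAs on non-loading arrays 1, 2 and 3 and 23.5%, 26.3% and 24.4% on loading arrays 1, 2 and 3. The groups overlapped, and the means were 26.5% ± 1.31 (SD, n = 3) and 24.7% ± 1.42 (SD, n = 3). This is a share of fluorescence and not of molecules, since probes differ in how strongly they bind.

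The log2 scaled signal of each member is given in the order of arrays 1, 2 and 3 of a group, where 0 is the reference level of the array. The chromosome 17 group comes first. let-7a gave 3.71, 3.68 and 3.67 in non-loading cells and 3.64, 3.77 and 3.68 under loading. Both groups lay around the same level, with the highest and the lowest array in the loading group. Its difference of 0.01 (standard error, SE, 0.07, limma adjusted p = 0.972) was the smallest of the 8 in size. let-7f, which differs from it by G12A, gave 3.20, 3.22 and 3.27 without loading and 3.24, 3.27 and 3.29 with it. The 6 values lay within 0.0929 of each other and the groups overlapped, with a difference of 0.04 (SE 0.07, limma adjusted p = 0.835). let-7d, the member that starts with A, gave 2.57, 2.39 and 2.29 in non-loading cells and 2.23, 2.44 and 2.34 under loading. Non-loading array 1 was high and loading array 1 low, the other 4 lay between, and the difference was -0.08 (SE 0.11, limma adjusted p = 0.743).

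let-7b and let-7c, neighbours on chromosome 7 that are 1 base apart, ranked the 6 arrays in the same order. How well their probes tell them apart was not tested. The values of let-7b were 4.66, 4.47 and 4.35 in non-loading rTDSCs and 4.15, 4.53 and 4.33 under loading. Loading array 2 was the second highest of the 6, so the groups overlapped, although the highest array was a non-loading and the lowest a loading one. The difference of -0.16 (SE 0.13, limma adjusted p = 0.724) was the largest of the family in size and corresponds to a ratio of 0.897, with 95% limits of 0.718 and 1.12. let-7c had 4.51, 4.34 and 4.31 without loading and 4.15, 4.42 and 4.28 with it. Its groups also overlapped, with a difference of -0.11 (SE 0.10, limma adjusted p = 0.724). In all, 51 of the 148 tested miRNAs had a larger difference in size than let-7b.

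The other 3 members had small positive differences. let-7e gave 1.83, 1.83 and 1.66 in non-loading cells and 1.71, 1.95 and 1.85 under loading, with overlapping groups and a difference of 0.06 (SE 0.10, limma adjusted p = 0.825). let-7i, made from a single locus, gave 3.30, 3.19 and 3.01 without loading and 3.12, 3.35 and 3.22 with it, again with overlap and a difference of 0.06 (SE 0.11, limma adjusted p = 0.825). In miR-98 alone of the family the groups stood apart. It gave -1.26, -1.27 and -1.34 in non-loading cells and -1.23, -1.19 and -1.26 under loading. The gap was narrow, since loading array 3 was at 41.7% of the reference level and non-loading array 1 at 41.6%. The difference of miR-98 was 0.06 (SE 0.07, limma adjusted p = 0.724, exact permutation p = 0.1, two-sided, the smallest that 3 arrays against 3 allow).

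**Figure D1:**
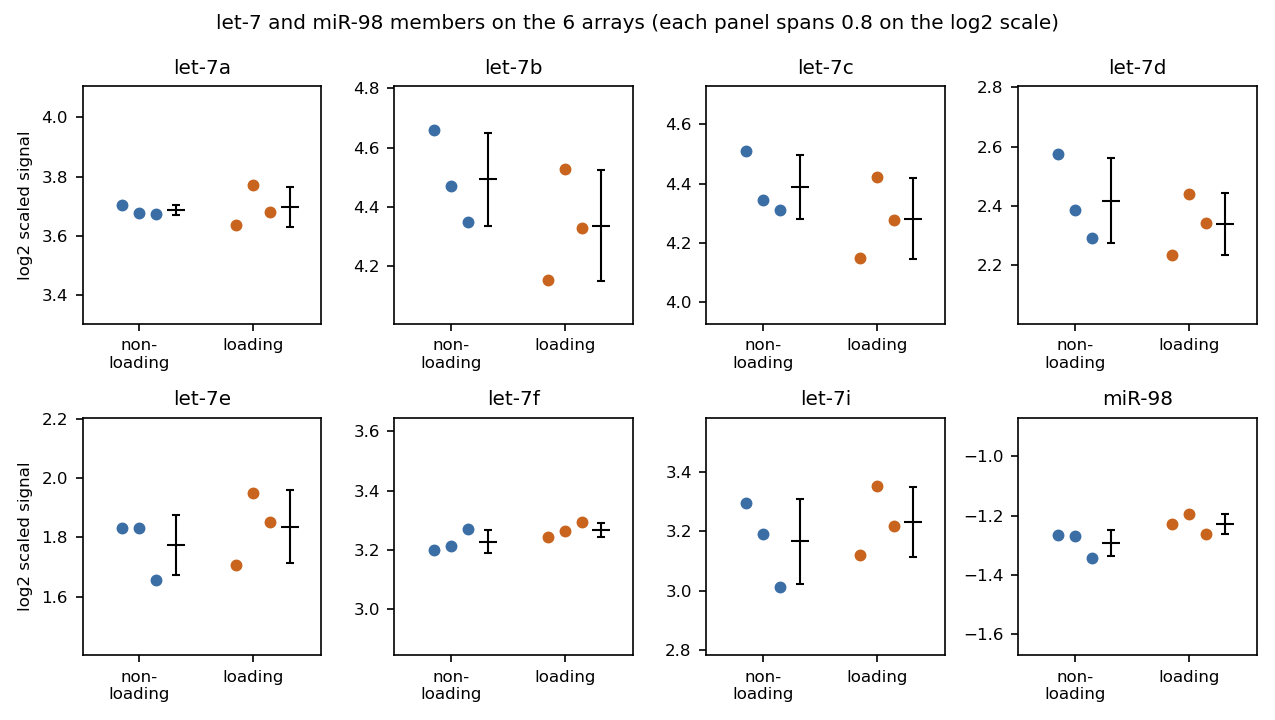
The log2 scaled signal of each member is plotted on the vertical axis for the 3 non-loading (blue) and 3 loading (orange) arrays, with replicates 1, 2 and 3 from left to right and the group mean ± SD in black. Every panel spans the same range, so that the wide scatter of let-7b can be set against the narrow one of let-7f, and the groups overlap in each panel except that of miR-98.

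Under loading 0 of the 8 members passed an adjusted p of 0.05 in limma, where 0% of the 148 tested miRNAs did, and 0 passed an unadjusted p of 0.05, where 9.46% did. The groups did not overlap and were higher under loading for 1 of 8 members, against 12.8% of all tested miRNAs, and lower for 0 of 8, against 2.7%. A positive difference was found for 5 of 8 members and for 66.9% of all tested miRNAs. The median difference was 0.02 over the members and 0.06 over all tested miRNAs on the log2 scale, and the median size of the difference was 0.06 and 0.11. The 95% limits of the members reached from -0.48 (let-7b) to 0.33 (let-7i) on the log2 scale, ratios of 0.718 and 1.26. Another reference level moves all miRNAs alike, and with the 75th percentile over all probes all 8 members were negative while the median of all tested miRNAs went from 0.06 to -0.09, so the sign of a small difference depends on the scaling. Quantile normalization, which does not move all miRNAs alike, gave -0.06 for let-7b, 0 for let-7c and -0.14 for let-7d. It gives a miRNA that keeps its rank on every array the same value, so a difference of 0 can be set by the method. Normexp background correction turned the signs of let-7b, let-7c, let-7d and miR-98, with SEs from 0.50 (let-7d) to 0.62 (miR-98). Normexp with outlying background replaced, added after seeing the data, gave -0.15, -0.09, -0.05 and 0.05 for them.

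**Figure D2:**
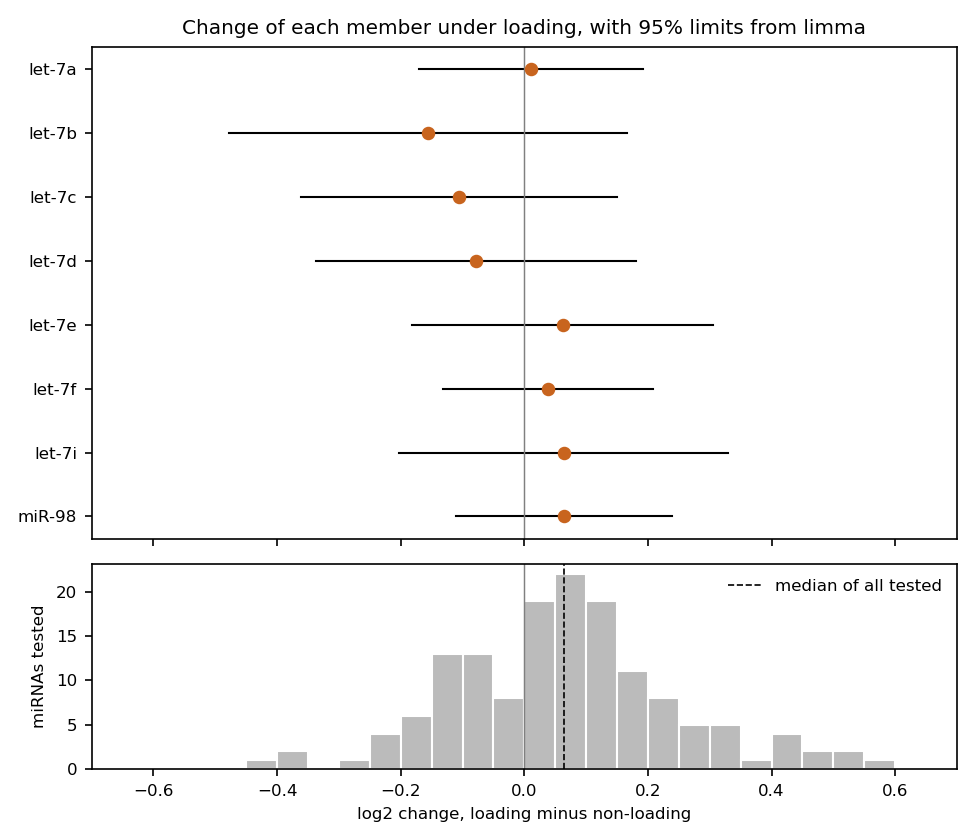
The upper panel shows the log2 difference between loading and non-loading cells for each member (points) with its 95% limits from limma (lines), and the lower panel counts all 148 tested miRNAs by the same difference, with their median of 0.06 dashed. The limits of all 8 members include 0.

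Each member had 2 probes, and they are compared because the brighter one dominates a summed signal. Both probes had the same sign for 8 of 8 members. The share over all tested miRNAs with 2 probes was not computed. The probes of a member share the arrays and their reference level, so their signs are not independent. The brighter and the dimmer probe gave differences of 0.01 and 0.0031 for let-7a, of 0.04 and 0.04 for let-7f, and of 0.06 and 0.06 for let-7i. The probes thus differed little in these members, although the dimmer probe of let-7f lay at the reference level itself, with log2 values of -0.06 to 0.01, so that its difference was largely set by the scaling. For let-7b the brighter probe gave -0.14 and the dimmer -0.19, for let-7c they gave -0.10 and -0.16, and for let-7d -0.08 and -0.09. In each of these the dimmer probe had the larger negative difference. For miR-98 the brighter probe gave 0.04 and the dimmer 0.10, and the brighter minus the dimmer was -0.07.

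Of the 16 member probes, 0 passed an adjusted p of 0.05 in limma and 0 an unadjusted one, against 1.55% and 13.9% of the 194 tested probes. Their adjusted p ran from 0.380 to 0.984. For 2 of 16 probes, the dimmer ones of let-7c and let-7d, all loading arrays lay below all non-loading arrays, against 6.19% of tested probes, and for 0 of 16 they lay above, against 14.4%. In either direction the background was 20.6%. The gap of the let-7d probe was very narrow, with log2 values of -0.437 on non-loading array 2 and -0.438 on loading array 1. The dimmer probe of let-7c was at 295% of the reference level in non-loading cells and at 265% under loading, a difference of -0.16 (SE 0.07, limma adjusted p = 0.380). The brighter probe of let-7c overlapped between groups and varied more, with an SD over the 6 arrays of 0.136 against 0.107 on the log2 scale. In 7 of 8 members the brighter probe had the larger SD over arrays, most clearly in let-7i with 0.158 and 0.0493, and miR-98 was the exception with 0.0420 and 0.102.

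**Figure D3:**
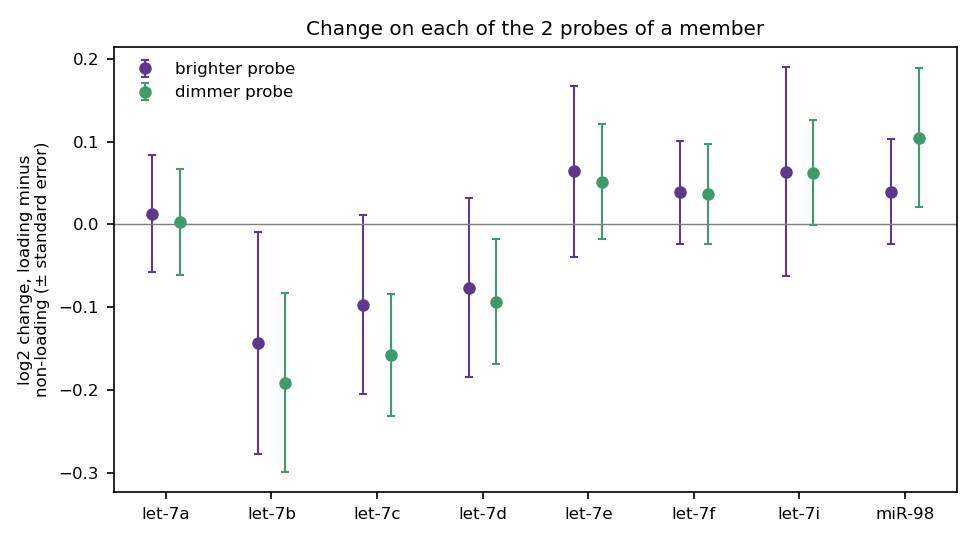
The log2 difference between loading and non-loading cells is shown for the brighter (purple) and the dimmer (green) probe of each member, with the standard error from limma. The probes of a member lie on the same side of 0 throughout, below it for let-7b, let-7c and let-7d.

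Several members moved together over the arrays in a way that was not the loading contrast, while let-7f did not and miR-98 did so only in part. Relative to each member's own mean, the mean of the family was 0.09 on non-loading array 1 and 0.09 on loading array 2, and -0.07 and -0.10 on non-loading array 3 and loading array 1. The high pair were the arrays of column 1 of the slide and also those with the lowest reference level, 275.1 and 262.6 intensity units, and the low pair lay in columns 3 and 4. The part of the slide position and of the reference level in this pattern was not tested. The median over the 148 tested miRNAs moved otherwise, with 0.02 and 0.03 on the high pair and -0.14 and 0.03 on the low pair. let-7f was at -0.05 on non-loading array 1, its lowest, and at 0.02 on non-loading array 3. miR-98 was at -0.0042 on non-loading array 1 and at 0.03 on loading array 1. On loading array 2 and non-loading array 3 miR-98 went with the family, at 0.06 and -0.08, its highest and lowest values. The share of fluorescence did not rank the arrays in the same way, since it was 26.0% on non-loading array 3 and 25.6% on non-loading array 2.

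The spread over the 6 arrays differed among the members. The SD of the log2 signal was 0.0354 for let-7f, 0.0452 for let-7a and 0.0499 for miR-98. It was 0.106 for let-7e, 0.120 for let-7d, 0.122 for let-7i, 0.124 for let-7c and 0.176 for let-7b, with a median of 0.166 over all tested miRNAs. This order went with the G and C bases of the mature sequences printed above, so that the members with 7 or 8 had the low spreads, those with 9 the middle ones and let-7b with 10 the highest. Across the 8 members the Pearson correlation of this spread with GC content was 0.950, as a description of miRNAs that share arrays, brightness and much of their sequence. It was 0.182 across 115 other tested miRNAs with a matched sequence and 0.603 across the 12 of these at least as bright as let-7e. The 8 members were not limited in this way, since miR-98 is dimmer than let-7e. GC content was not among the comparisons set at the start. The order did not hold for the spread that remained after the mean of the other 7 members was subtracted on each array. There let-7b had 0.125, let-7f 0.110 and miR-98 0.0839, above let-7c, let-7d, let-7e and let-7i with 0.0634 to 0.0720. let-7a was the lowest with 0.0537. With the difference between groups, GC content correlated at -0.64 across the members and at 0.0068 across the 115 others.

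**Figure D4:**
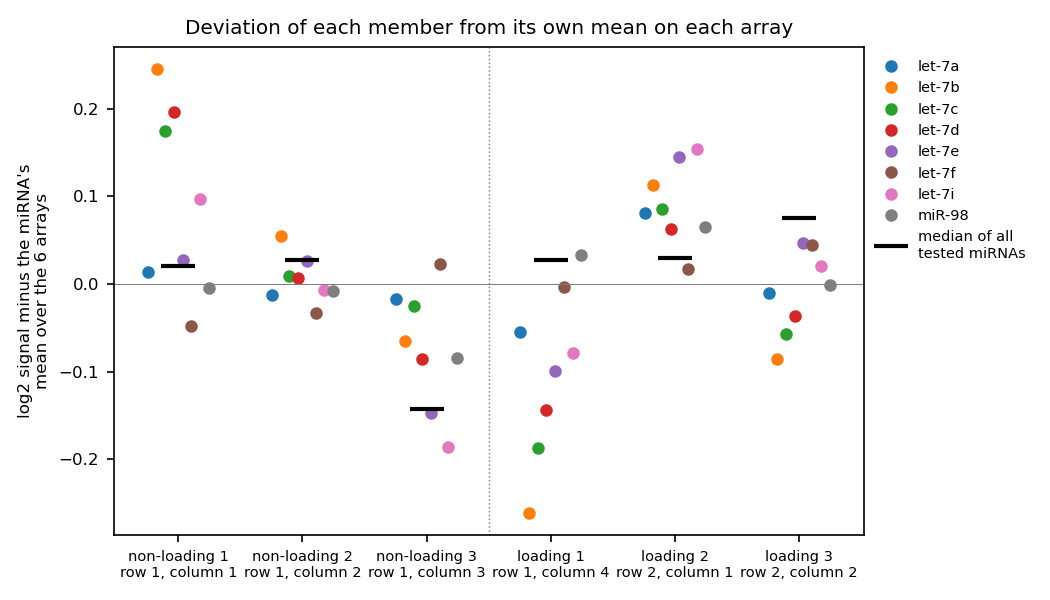
Each point is the log2 signal of a member on one array minus that member's mean over the 6 arrays, with the row and column of the array on the slide below, and black bars give the median of the 148 tested miRNAs. let-7b spreads widest, from 0.25 on non-loading array 1 to -0.26 on loading array 1, and let-7f least.

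Differences within an array cancel any factor common to the array, so each member was also set against the mean of the other 7. On this measure let-7c was at 1.94, 1.84 and 1.89 on non-loading arrays 1, 2 and 3 and at 1.74, 1.83 and 1.78 on loading arrays 1, 2 and 3. All 3 loading values lay below the non-loading ones, with a difference of -0.11. let-7d also lay lower, at -0.27, -0.40 and -0.41 without loading and -0.45, -0.43 and -0.43 with it. let-7i lay higher, at 0.55, 0.53 and 0.41 without loading and 0.56, 0.61 and 0.57 with it, a difference of 0.09. For each of these 3 the exact permutation p was 0.1 (two-sided), the smallest possible. No overlap was thus found for 3 of 8 members, 2 lower and 1 higher, where of the 148 tested miRNAs set against the mean of the members 15.5% showed none, 3.38% lower and 12.2% higher. The values of the 8 members on an array cancel out by construction, so a lower member raises the others and the 3 are not separate events. Most of the 148 are non-members, which are not tied in this way. With the brighter probe alone it was 1 of 8, and it was 5 of 8 either without non-loading replicate 3 or without loading replicate 2. For these settings the share over all tested miRNAs was not computed, and groups with fewer arrays separate more easily, so the counts are not comparable.

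Within the fluorescence of the family, the share of let-7b was 26.9% ± 1.17 (SD, n = 3) without and 25.0% ± 1.21 (SD, n = 3) with loading. let-7c held 24.9% ± 0.411 (SD, n = 3) and 24.1% ± 0.320 (SD, n = 3), and let-7e held 4.08% ± 0.187 (SD, n = 3) and 4.42% ± 0.0546 (SD, n = 3). miR-98 held 0.487% ± 0.0213 (SD, n = 3) and 0.530% ± 0.0389 (SD, n = 3). The share of let-7i was 10.9%, 11.0% and 10.2% on non-loading arrays 1, 2 and 3 and 11.7%, 11.7% and 11.6% on loading arrays 1, 2 and 3, with the loading group above. The shares of let-7e (3.95%, 4.29% and 3.99% without loading, 4.38%, 4.40% and 4.48% with it) and of let-7c (25.3%, 24.5% and 25.0% without loading, 23.8%, 24.4% and 24.1% with it) did not overlap either. As parts of a whole these shares are not independent of each other, and the share over all tested miRNAs was not computed for this measure. let-7e overlapped between the groups when its log2 signal was set against the mean of the other members. The shares of let-7b overlapped between the groups, with 26.3% on loading array 2 and 25.8% on non-loading array 3. Those of let-7a, let-7d, let-7f and miR-98 overlapped too.

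The star arms, the strands that are mostly discarded when the hairpin is processed, were barely seen. Of 9 star names on the array 0 passed the filter and 8 were detected on no array. A miRNA counted as detected on an array where the scanner software flagged it so, and for a dim one this can hold with no or few spots well above background. let-7b* was detected on 2 of 3 arrays in each group, at 5.83% to 11.3% of the reference level over all arrays, where 1 spot without loading and 15 spots with it rose well above background, of 120 spots. miR-3596a, miR-3596b, miR-3596c and miR-3596d were looked up after the data were seen, because the RefSeq table places them on the strands opposite to let-7a, let-7d, let-7e and let-7f. None of the 4 was detected on any array, and at most 2 of 120 spots of each were well above background.

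The 5 miRNAs of other seeds listed as neighbours of members were all detected on all 6 arrays, and 0 passed an adjusted p of 0.05 in limma. Beside let-7e, miR-125a-5p and miR-99b both had positive differences, of 0.20 (SE 0.08, limma adjusted p = 0.486) and 0.20 (SE 0.10, limma adjusted p = 0.606). The groups of miR-125a-5p did not overlap, and those of miR-99b did. miR-125b-5p, which lies 44.4 kb from let-7c on chromosome 11, had 0.11 (SE 0.09). miR-99a was on the list too, but the RefSeq table gave no position for it near a member. It was lower on all loading arrays, with a difference of -0.28 (SE 0.13, limma adjusted p = 0.606). miR-100, beside let-7a on chromosome 8, had 0.13 (SE 0.12). The 5 listed miRNAs, miR-99a included, had 4 positive differences and a median of 0.13, against 66.9% positive and a median of 0.06 over all tested miRNAs. Of all tested miRNAs 15.5% did not overlap between the groups, 12.8% higher and 2.7% lower under loading.

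The non-members nearest to the mean of the family over the 6 arrays were miR-146b, miR-214 and miR-199a-3p. After each miRNA was centred on its own mean, the root mean square difference from the family was 0.0386, 0.0470 and 0.0486 on the log2 scale, against 0.0429 for let-7a and 0.0998 for let-7b, which are part of that mean. The differences between groups were -0.08 for miR-146b, -0.05 for miR-214 and 0.02 for miR-199a-3p, none of them past an adjusted p of 0.05 in limma.

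**Figure D5:**
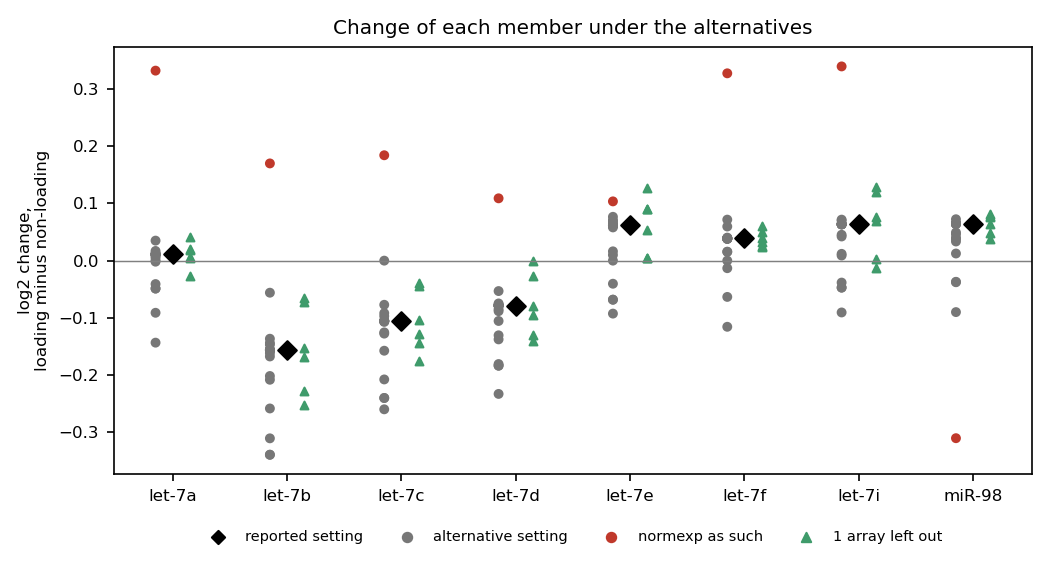
The log2 difference between loading and non-loading cells is plotted for each member under the reported setting (diamonds), the alternative settings (circles, with normexp in red) and with each array left out (triangles). The values of let-7b, let-7c and let-7d stay at or below 0 apart from normexp, where settings with another reference level move all members alike, and those of the other members lie on both sides of 0.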

How the data were processed

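The authors deposited Agilent Feature Extraction output (version 10.7.3.1) of 6 one-colour arrays, 3 per group, on 1 slide, with a background-subtracted intensity per spot, not scaled between arrays, and flags. The deposited series matrix holds the same intensity (largest difference 0). Here outlier and control spots were dropped, 10 spots averaged per probe, arrays divided by their 75th percentile, 2 probes summed per member, values floored at 1.87% of that percentile (0 member values) and log2 taken. A probe was detected if 50% of its spots were well above background, and a miRNA if the deposited file's own gene-level flag said so. miRNAs detected on all arrays of a group entered limma 3.58.1 (lmFit, eBayes, R 4.3.3) with Benjamini-Hochberg adjustment at 0.05, a step tested on simulated data. The methods name Student-Newman-Keuls, run as an alternative. The text names the 8 members, star arms, 5 miRNAs listed as neighbours, miRNAs with the same seed, cell type markers and the 3 nearest profiles. Members and lists were chosen with earlier results of these data known. Of the tested miRNAs 83.1% matched a RefSeq mature sequence by name. Probe sequences were not used here.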

Additional observations from a re-analysis of the deposited data

How the results depend on the processing

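Under 17 alternatives set at the start, 3 added after seeing the data (normexp with outlying background replaced, the array column as a block, row 1 of the slide only) and 6 arrays left out in turn, 0 of 208 member values passed an adjusted p of 0.05 in limma or Student-Newman-Keuls (0.438 to 1), and 26 changed sign. No paired structure was seen, since deviations of same-numbered arrays correlated at -0.69, -0.47 and 0.11 and no array matched its own number best, and with the replicate block 0 members passed an adjusted or unadjusted p of 0.05, with the differences unchanged by construction (let-7b -0.16, adjusted p = 0.850). Normexp, which moved the median over all miRNAs to -0.45, gave 0.17 for let-7b, 0.18 for let-7c, 0.11 for let-7d and -0.31 for miR-98. With outlying background replaced, these members had the signs of the reported setting. With the 75th percentile over all probes let-7a, let-7e, let-7f, let-7i and miR-98 were at -0.14, -0.093, -0.12, -0.091 and -0.090, with all miRNAs at a median of -0.09, and with the total gene signal at -0.091, -0.040, -0.063, -0.038 and -0.038. The total gene signal put 1 member, let-7b at -0.26, past an unadjusted p of 0.05 (adjusted p = 0.677 in limma). Quantile normalization gave -0.037 for miR-98. Without scaling let-7a was at -0.041 and let-7f at -0.013, and with array quality weights let-7a was at -0.0018. Blocking on the array row, or using row 1 alone (non-loading replicates 1 to 3 and loading replicate 1, which is assumed to vary like the others), let-7a, let-7e and let-7i were at -0.049, -0.068 and -0.047 and let-7b at -0.34. With an array left out let-7a ran from -0.027 to 0.041 and let-7i from -0.013 to 0.13. Members set apart from the other members without overlap numbered 3, against 1 with the brightest probe and 3 to 5 with an array left out. Fewer arrays separate more easily, and the share over all tested miRNAs was not computed for these alternatives. The causes were not tested. All member probes were well above background, and the SE of let-7a ran from 0.020 with quantile normalization to 0.56 with normexp. With quantile normalization let-7c had the same SE of 0.020, and both differences were 0. A miRNA that keeps its rank on every array gets the same value there, so such an SE is no measure of precision.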
